A study of Bos taurus with 28 samples.

Results

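The 10 genes of mammary involution and tissue remodelling were followed across 28 dairy cows: STAT3, SOCS3, TGFB1, TGFB3, MMP2, MMP9, TIMP1, CTSB, CTSD and CLU. The members were all probe sets whose platform annotation gave exactly 1 symbol among these 10 genes, which found 18 of the 24016 probe sets tested. CTSB had 6 probe sets, STAT3, SOCS3 and TIMP1 had 2 each, and the others had 1. RNA came from surgical mammary biopsies of Holstein-Friesian cows in mid-lactation, on average 153 days in milk (SD 32.8, per the labels), all on the control diet, and each cow had 1 Affymetrix Bovine Genome Array. The cows were genotyped at DGAT1, which encodes an enzyme of the last step of triacylglycerol synthesis: 11 were A232A (alanine on both alleles, AA here), 13 were A232K (KA) and 4 were K232K (lysine on both alleles, KK). Each value is on a log2 scale and relative to a baseline of its probe set, so it compares cows and says nothing of which gene is more abundant. A biopsy is a mixture of cells, in which fewer cells of a type and less RNA per cell cannot be told apart.

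Involution is the return of the gland to a non-secreting state when milk is no longer removed. In rodents, milk stasis induces TGFB3 and the cytokine LIF, which activates the transcription factor STAT3. STAT3 induces its own feedback inhibitor SOCS3, lysosomal cathepsins take part in the loss of secretory cells, CLU (clusterin, a secreted chaperone) accumulates in the regressing epithelium, and metalloproteinases, held in check by TIMP1, then remodel the matrix. Milk protein and milk fat genes fall silent in the same period. In cows the process is slower and the gland often keeps much of its epithelium.

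The arrays of cows AA 2 and AA 9, numbered 33 and 43 in the sample titles, stood apart: the values of all probe sets had an SD of 0.86 in the first and 0.78 in the second, where no other array passed 0.35. Their control probe sets did not place the 2 arrays alike, and whether RNA quality set either apart was not tested. For actin, the signal at the 3′ end minus that at the 5′ end was -0.14 and -0.21, inside the range of the other 26, and that of GAPDH was 1.33 in AA 2 and -0.66 in AA 9, beyond the range of -0.59 to 0.97 on opposite sides. Both arrays carry the same tissue label, diet and lactation stage as the rest. Each is therefore described by its own values, with no test, and where a genotype difference is described below its value without them is given beside it. Sample titles carry running array numbers from 29 to 56. Numbers 29 to 42 hold 8 AA, 2 KA and all 4 KK arrays, and numbers 43 to 56 hold 3 AA and 11 KA arrays. No source used here says whether the numbers mark a batch.

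The members gave a mixed picture in AA 2 and AA 9. Of the 10 genes, 5 (STAT3, TGFB3, MMP2, CTSB and CLU) had at least 1 probe set that lay above all other 26 arrays in both cows. MMP9 lay below all 26 in both. SOCS3, TGFB1, TIMP1 and CTSD did not leave the range of the other cows in both arrays in either direction. Counted by probe set, 7 of 18 lay above all 26 in both arrays, against 18.4% of all probe sets tested, and 1 of 18 lay below all 26, against 17.7%. The high and low sides were thus about equally common over all probe sets, while the members that left the range were mostly high. Among the 9155 genes with a representative probe set, the high side was more common, with 22.3% above and 16.2% below. By representative probe set, 5 of the 10 members lay above and 1 below. CTSB alone held several of the 7 high probe sets. After quantile normalization, which by construction gives every array the same spread of values, 0 of the 18 lay above and 0 below, against 2.19% and 2.20% of all probe sets.

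**Figure D1:**
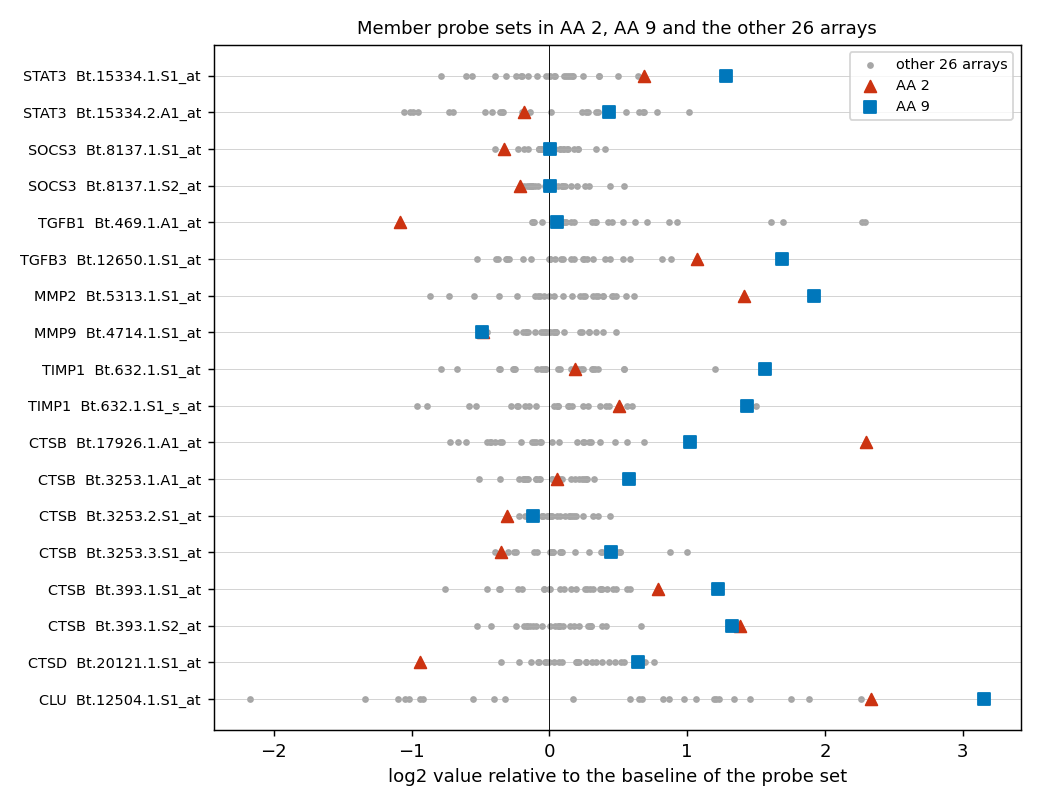
Log2 value of each of the 18 member probe sets (rows) in the 28 arrays, relative to the baseline of the probe set. Grey points are the other 26 arrays, the red triangle is AA 2 and the blue square is AA 9; both marks lie to the right of all grey points for 7 probe sets, of STAT3, TGFB3, MMP2, CTSB and CLU, and to the left for MMP9.

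STAT3, the transcription factor that drives the first phase of involution, was read by 2 probe sets that did not give the same picture. Probe set Bt.15334.1.S1_at stood at 0.69 in AA 2 and 1.28 in AA 9, and the other 26 ran from -0.79 over a median of 0.02 to 0.64 in KK 4. AA 2 therefore cleared the highest other cow only narrowly. Probe set Bt.15334.2.A1_at stood at -0.18 in AA 2 and 0.43 in AA 9, inside the range of -1.06 to 1.02. Over the 26 other arrays the pair were only weakly related (r = 0.26, permutation p = 0.195, adjusted over 18 pairs of probe sets 0.319; rho = 0.28, permutation p = 0.169, adjusted 0.298). SOCS3, the feedback inhibitor that STAT3 induces, was not high in either cow. Its probe set Bt.8137.1.S1_at stood at -0.33 in AA 2 and 0.00 in AA 9, with the other 26 between -0.40 and 0.41 (median 0.03), and Bt.8137.1.S2_at at -0.21 and 0.00, with the others between -0.21 and 0.54. Both SOCS3 probe sets are of the dim class, the lowest of 3 coarse level classes read from the rounding of the values, and they did not vary together over the 26 arrays (r = -0.02, permutation p = 0.917, adjusted 0.917; rho = -0.05, permutation p = 0.814, adjusted 0.875).

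Beside the members, 15 genes of IL-6 family receptors and STAT3 signalling were measured. One lay above all 26 arrays in both cows, CEBPD, a transcription factor that STAT3 induces in the involuting gland, at 1.61 in AA 2 and 1.27 in AA 9. FOS stood at 1.57 and 2.12, within the reach of other cows in at least 1 array. PIM1, a survival kinase, lay below all 26 at -0.80 and -1.32. IGFBP5, an IGF-binding protein known to rise in rodent involution, stood at -1.34 and -0.26, so it was not high in either cow. The opposing branch, prolactin, STAT5 and growth factor survival signalling, had 0 of 11 genes above and 5 below all 26 in both arrays. STAT5B, which relays prolactin, stood at -1.79 in AA 2 and -1.19 in AA 9, and IGF1 at -1.85 and -1.90. Of the 9155 genes with a representative probe set, 22.3% lay above and 16.2% below all 26 in both cows.

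The TGF-beta ligands went separate ways. TGFB3, the isoform that milk stasis induces in alveolar epithelium, stood at 1.07 in AA 2 and 1.69 in AA 9, above the other 26, which ran from -0.53 over 0.09 to 0.88 in KA 7. TGFB1 stood at -1.09 in AA 2, the lowest of all 28 arrays, and at 0.05 in AA 9, where the other 26 ran from -0.12 over 0.32 to 2.29. Of 14 measured receptors, SMADs, latency proteins and antagonists, 6 lay above and 3 below all 26 in both cows. The shares over all genes with a representative probe set were 22.3% above and 16.2% below. The highest were TGIF1, a SMAD corepressor, at 3.65 and 3.36, and BAMBI, a decoy receptor, at 1.88 and 1.48, while FST, the activin antagonist follistatin, stood at -2.23 and -2.66.

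The 2 gelatinases parted. MMP2, which degrades basement membrane collagen and is made mostly by stromal cells, stood at 1.41 in AA 2 and 1.92 in AA 9, and no other cow exceeded 0.61 (lowest -0.86, median 0.19). MMP9, which neutrophils and macrophages also supply, stood at -0.48 and -0.49, just below AA 10 at -0.45, with the other 26 up to 0.48 (median 0.01). The margin for MMP9 was narrow, and after subtraction of each array's median it no longer lay below all 26 in both cows. TIMP1, the inhibitor of both enzymes, stood at 0.19 in AA 2 and 1.56 in AA 9 on Bt.632.1.S1_at (other 26 from -0.79 over 0.07 to 1.20) and at 0.50 and 1.44 on Bt.632.1.S1_s_at (other 26 from -0.96 over 0.06, with KA 5 just above AA 9). AA 9 was thus at or near the top for TIMP1 and AA 2 was not.

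Among 16 other metalloproteinases, 1 lay above and 2 below all 26 in both cows. For this list and the next 2, the shares over all genes with a representative probe set were 22.3% above and 16.2% below. ADAM10, a sheddase, stood at 1.05 and 0.96, MMP19 at 0.44 and 1.53, ADAM15 at -0.79 and -0.37, and BSG, an inducer of metalloproteinases, at -1.65 and -0.22. Of 11 other protease inhibitors, 5 lay above and 1 below. SERPINE2 stood at 1.95 and 2.01 and TIMP2, which also takes part in MMP2 activation, at 1.62 and 1.97, whereas TIMP4 stood at -2.23 and -1.56. Of 5 genes of plasminogen activation, only PLAU, the urokinase that converts plasminogen to plasmin, lay above all 26 in both, at 1.34 and 0.89.

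CTSB, a lysosomal cysteine protease, had 3 of its 6 probe sets above all 26 arrays in both cows. Bt.393.1.S1_at, the only CTSB probe set of the bright class, stood at 0.79 in AA 2 and 1.22 in AA 9 (other 26 from -0.76 over 0.17 to 0.58). Bt.393.1.S2_at stood at 1.38 and 1.33 (other 26 up to 0.66), and Bt.17926.1.A1_at at 2.30 and 1.02 (other 26 up to 0.69). The other 3 CTSB probe sets, whose identifiers start with Bt.3253, did not leave the range of the other cows in both arrays. They stood between -0.35 and 0.05 in AA 2 and between -0.12 and 0.58 in AA 9. The 6 probe sets therefore do not read a single common pattern, and over the 26 other arrays their correlations with each other ran from -0.44 to 0.74. CTSD, a lysosomal aspartic protease, stood at -0.94 in AA 2, the lowest of all 28, and at 0.65 in AA 9, near the top of the other 26 (-0.35 to 0.76, median 0.20). The 2 cows were thus at opposite ends for CTSD.

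Of 24 other cathepsins and lysosomal proteins, 6 lay above and 2 below all 26 in both cows. Over all genes with a representative probe set, 22.3% lay above and 16.2% below. The count above was thus near its share and the count below under it. LIPA, the lysosomal acid lipase, stood at 1.97 and 2.36 and CTSK, a collagen-degrading cathepsin, at 1.60 and 1.66. CTSL, a cathepsin that rises with CTSB in the involuting mouse gland, stood at -1.80 and -2.47, and PSAP at -2.03 and 0.12. Of 16 apoptosis regulators and caspases, 4 lay above and 2 below, also close to those shares. The highest was BCL2, an inhibitor of apoptosis, at 2.45 and 2.12, and APAF1, a part of the apoptosome, stood at -0.46 and -0.25, below all 26.

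CLU stood at 2.33 in AA 2 and 3.15 in AA 9, above all other cows in both. The other 26 ran from -2.17 in AA 1 over a median of 0.66 to 2.26 in KA 2. AA 2 was therefore only slightly above KA 2, and the spread among the other cows was itself large. Of 11 acute phase and antimicrobial milk proteins, 0 lay above and 1 below all 26 in both arrays. Both counts were under the shares over all genes with a representative probe set, 22.3% above and 16.2% below. HP (haptoglobin) stood at 3.67 and 3.06 and CHI3L1, a secreted chitinase-like protein, at 2.83 and 3.42, with at least 1 of the 2 values of each inside the range of the other cows, and CD14 stood at -1.16 and -1.61, below all 26.

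The secretory genes were low in these arrays. Over all genes with a representative probe set, 16.2% lay below all 26 in both cows. All 13 milk fat synthesis and globule genes lay below all 26 in both cows, with a mean of -2.97 in AA 2 and -3.22 in AA 9, where the other 26 means ran from -0.39 to 0.41. CIDEA, a lipid droplet protein, stood at -4.82 and -6.79, MUC1 at -3.92 and -5.02, and XDH at -1.83 and -2.37. Of 7 milk proteins, which also serve to check the labelled tissue, 6 lay below all 26 in both, with a mean of -0.67 in AA 2 and -1.65 in AA 9 (other 26 from -0.29 to 0.09). LALBA, the regulatory subunit of lactose synthase, stood at -0.71 and -1.81 and CSN2, beta-casein, at -0.33 and -1.26. The mean of the milk protein genes thus lay closer to 0 than that of the milk fat genes in either cow.

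The fibroblast, luminal epithelial and T cell lists had means above those of the other 26 in both AA 2 and AA 9. Over all genes with a representative probe set, 22.3% lay above and 16.2% below all 26 in both. A count of 3 of 9 markers above is little more than that share. Of 12 fibroblast markers, 7 lay above and 1 below all 26 in both, and the mean was 1.04 and 1.14 against -0.37 to 0.41 in the others. Of 9 luminal epithelial markers, 6 lay above and 0 below (means 1.21 and 1.25, others -0.47 to 0.54), among them KRT18 at 2.32 and 2.98 and CDH1 at 2.49 and 1.85. KRT8, at 0.12 and -0.39, and CLDN3 did not leave the range of the other cows in both arrays. Of 9 macrophage markers, 3 lay above and 0 below (means 0.88 and 1.55, others -0.50 to 0.96), and of 9 T cell markers, 3 above and 0 below (means 0.67 and 0.89, others -0.46 to 0.58). Of 9 myoepithelial and smooth muscle markers, 3 lay above and 0 below (means 0.57 and 0.95, others -0.54 to 0.73). KRT14 stood at 2.19 and 5.08, TAGLN at -0.94 and 0.88, and OXTR at -0.01 and -0.81. The AA 2 means of the macrophage and myoepithelial lists lay inside the range of the other cows. Neutrophil markers, 4 in number, had 0 above and 0 below (means 0.08 and -0.25, others -0.22 to 1.11). Adipocyte markers, 6 in number, had 0 above and 1 below (means -0.39 and -0.34), endothelial markers, 8 in number, 0 above and 1 below, B cell and plasma cell markers, 4 in number, 1 above and 1 below, and red cell markers, 3 in number, 0 above and 1 below. Their part in the values of the members was not tested, and absence of a marker cannot be read from values without levels.

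**Figure D2:**
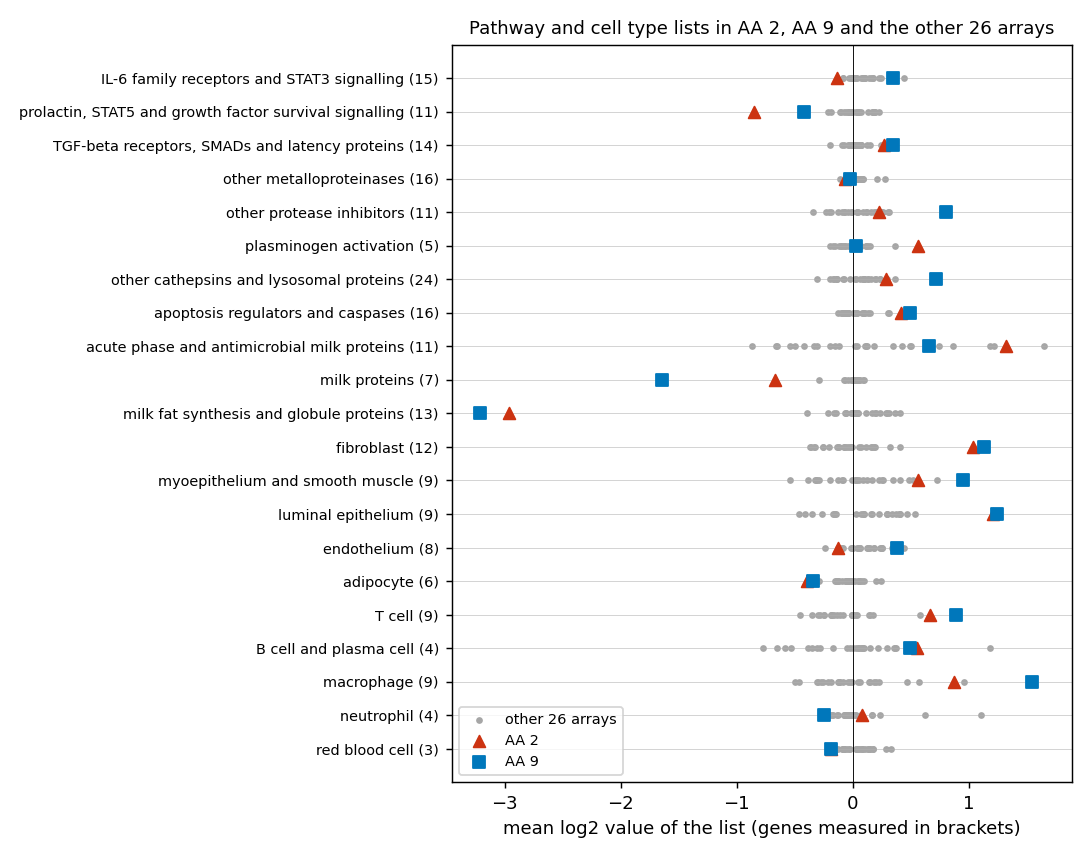
Mean log2 value of each pathway or cell type list (rows, number of genes measured in brackets) in the 28 arrays. Grey points are the other 26 arrays, the red triangle AA 2 and the blue square AA 9; milk fat genes lie near -3 in both cows, while fibroblast and luminal epithelial lists lie above 1.

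Set beside the known course of involution, the 2 cows shared high STAT3 (1 of 2 probe sets), CEBPD, TGFB3, MMP2, CTSB (3 of 6 probe sets), CLU and PLAU, and low STAT5B, IGF1, milk fat and milk protein RNA. CEBPD was 1 of 15 STAT3 pathway genes and PLAU 1 of 5 plasminogen genes above the range, smaller shares than the 22.3% of all genes, and no member stayed outside the range after quantile normalization. They did not share high SOCS3, TGFB1, MMP9, TIMP1, CTSD or IGFBP5, and CTSL was low and BCL2 high in both. The milking state of single cows is not in the labels, and whether either gland was involuting was not tested.

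By genotype, no member was called. In limma fits over all 24016 probe sets with Benjamini-Hochberg adjustment at 0.05, 0 of the 18 member probe sets passed in any of the 3 differences between genotypes (KK minus AA, KK minus KA, and KA minus AA) or for the slope per K allele, and neither did any other probe set (0% in each comparison). At an unadjusted p under 0.05, 4 of 18 member probe sets were reached for KK minus AA, against 3.51% of all probe sets. The numbers were 4 of 18 for KA minus AA against 21.8%, 0 of 18 for KK minus KA against 2.84%, and 5 of 18 for the slope per K allele against 9.16%. Without AA 2 and AA 9, both of which are AA, 2 of 18 were reached for KK minus AA against 2.76% of all probe sets in the same setting, 2 of 18 for KA minus AA against 9.5%, 1 of 18 for KK minus KA against 6.08% and 2 of 18 for the slope against 3.26%. Since both cows belong to the reference group, their values enter every difference from AA.

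**Figure D3:**
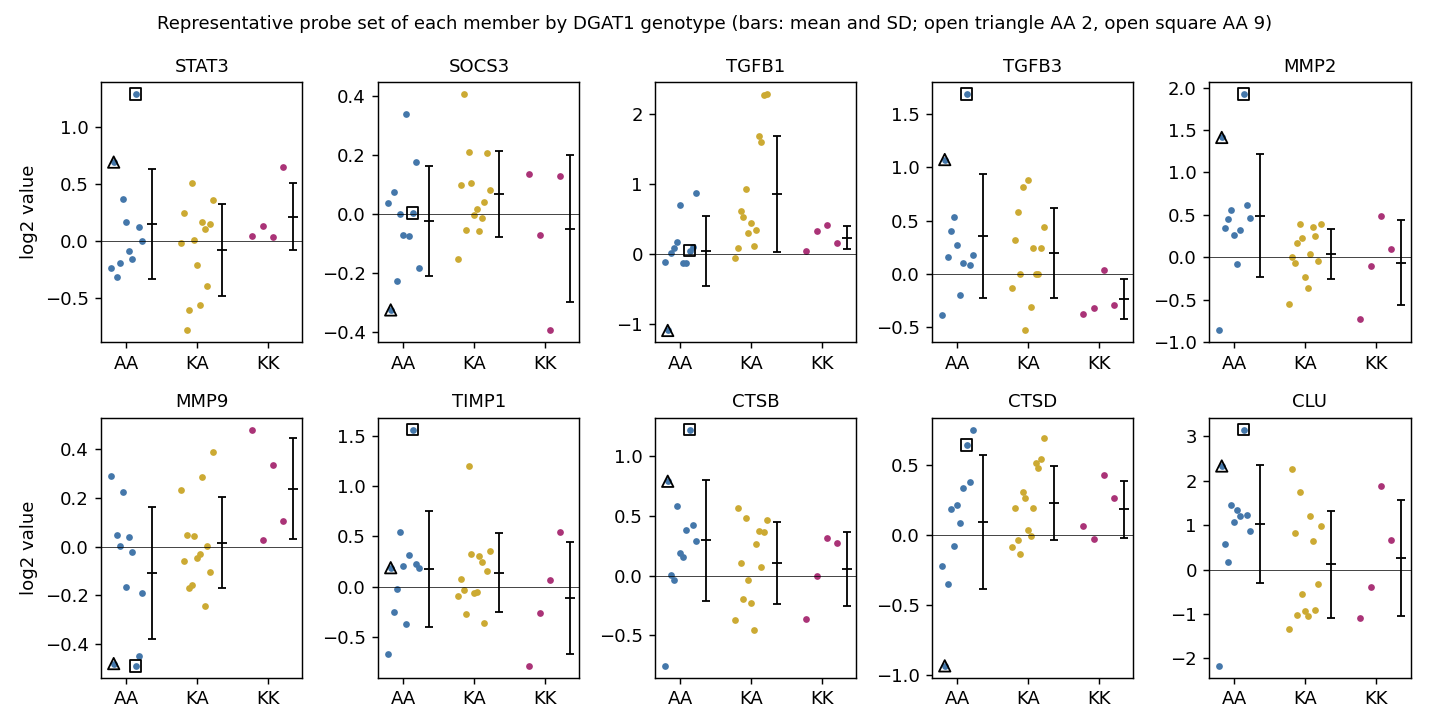
Log2 value of the representative probe set of each member by DGAT1 genotype, 1 point per cow, with mean and SD as bars (11 AA, 13 KA, 4 KK). The open triangle marks AA 2 and the open square AA 9, which set the top of the AA points for STAT3, TGFB3, MMP2, CTSB and CLU; scales differ between panels.

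MMP9 had the smallest unadjusted p among the members for KK minus AA. It stood at 0.03 to 0.48 in the 4 KK cows (median 0.22), at -0.24 to 0.39 in KA (median -0.03) and at -0.49 to 0.29 in AA (median -0.02), so the groups overlap. The mean was 0.24 ± 0.21 (SD, n = 4) in KK, 0.01 ± 0.19 (n = 13) in KA and -0.11 ± 0.27 (n = 11) in AA, or -0.03 ± 0.22 (n = 9) without AA 2 and AA 9. The limma difference KK minus AA was 0.35 (SE 0.13, p = 0.014, adjusted p = 0.909), and without AA 2 and AA 9 it was 0.26 (p = 0.0378). Within array numbers 29 to 42, which hold all KK cows, the means differed by 0.25 with all AA cows and by 0.18 without AA 2. With a block for lower and upper array numbers the limma difference was 0.28 (p = 0.036). Without AA 2 and AA 9 the block gave 0.21 (limma p = 0.0766). A linear term for array number gave 0.28 (limma p = 0.0471). Leaving out KK 1 gave 0.27 (limma p = 0.0801), and leaving out any other KK cow kept p under 0.05. MMP9 tended to fall with array number over the 26 arrays (r = -0.48, permutation p = 0.0143, adjusted over 18 probe sets 0.0857, and rho = -0.50).

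TGFB3 lay lower in KK, at -0.38 to 0.04 (median -0.30), than the median of AA, 0.18, within a range of -0.38 to 1.69 for AA. The mean was -0.24 ± 0.19 (n = 4) in KK, 0.20 ± 0.42 (n = 13) in KA and 0.36 ± 0.58 (n = 11) in AA, or 0.13 ± 0.28 (n = 9) without AA 2 and AA 9. The limma difference KK minus AA was -0.59 (SE 0.26, p = 0.0316, adjusted p = 0.909), and -0.37 (p = 0.0763) without AA 2 and AA 9. The difference was thus smaller and no longer under an unadjusted p of 0.05 without those 2 cows.

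The fibroblast list, like TGFB3 and MMP2, had a lower mean in KK than in AA, with or without AA 2 and AA 9. Without these cows the mean of TGFB3 was 0.13 in AA and 0.20 in KA. TGFB3 thus did not follow the fibroblast list from AA to KA. Of 12 fibroblast markers, 6 were lower for KK minus AA at an unadjusted limma p under 0.05 and 0 higher, against 3.51% of all probe sets in either direction, with a median difference of -0.62. For KA minus AA 5 of 12 were lower (21.8% of all probe sets) and for the slope 8 of 12 (9.16%), and none passed the adjusted threshold. Without AA 2 and AA 9 the counts were 3, 1 and 2 of 12, beside 2.76%, 9.5% and 3.26% of all probe sets. The 1 of 12 for KA minus AA thus did not exceed its share. The median for KK minus AA was then -0.33. The mean of the fibroblast list was 0.26 ± 0.46 (n = 11) in AA, or 0.07 ± 0.23 (n = 9) without these cows, -0.06 ± 0.16 (n = 13) in KA and -0.25 ± 0.14 (n = 4) in KK. Of 9 myoepithelial and smooth muscle markers, 4 were lower for KK minus AA, or 2 without AA 2 and AA 9 (3.51% and 2.76% of all probe sets). For the slope 4 were lower with or without them (9.16% and 3.26%). Luminal epithelial markers had 1 of 9 lower for KK minus AA and 2 of 9 for KA minus AA, both 0 without these cows, and macrophage markers 0 of 9 in either. T cell markers had 3 of 9 higher for KK minus KA, or 5 without these cows (2.84% and 6.08% of all probe sets). For KA minus AA 4 of 9 T cell markers were lower, or 2 without them (21.8% and 9.5%). The part of these cell types in the values of the members was not tested.

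STAT3 depended on the probe set here too. Bt.15334.2.A1_at had a mean of 0.33 ± 0.46 (n = 4) in KK, 0.11 ± 0.61 (n = 13) in KA and -0.35 ± 0.54 (n = 11) in AA, with AA from -1.06 to 0.43 and KK from -0.14 to 0.78. By limma KK minus AA was 0.68 (SE 0.31, p = 0.0392, adjusted p = 0.909) and KA minus AA 0.46 (SE 0.22, p = 0.0452, adjusted p = 0.222). Without AA 2 and AA 9 these were 0.79 and 0.57, so the direction did not come from those arrays. With a block for array numbers 29 to 42 and 43 to 56, KK minus AA was 0.74 (limma p = 0.0299) and KA minus AA 0.33 (p = 0.239). Array number as a linear term gave 0.65 for KK minus AA (limma p = 0.0631). That difference was 0.57 without KK 2 (limma p = 0.118) and 0.53 without KK 4 (p = 0.144). It stayed under an unadjusted p of 0.05 without KK 1 or without KK 3. Bt.15334.1.S1_at gave means of 0.21 ± 0.29 in KK, -0.08 ± 0.40 in KA and 0.15 ± 0.48 in AA, or -0.04 ± 0.22 without AA 2 and AA 9. The AA mean thus lay between the other 2 with these cows and without them.

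TGFB1 had the smallest unadjusted p of any member, for KA minus AA. KA ran from -0.05 over 0.54 to 2.29, AA from -1.09 over 0.05 to 0.87, and the 4 KK cows from 0.05 to 0.43. The mean was 0.86 ± 0.83 (n = 13) in KA, 0.05 ± 0.50 (n = 11) in AA, or 0.18 ± 0.36 (n = 9) without AA 2 and AA 9, and 0.24 ± 0.17 (n = 4) in KK. The limma difference KA minus AA was 0.81 (SE 0.25, p = 0.00349, adjusted p = 0.139) and 0.68 (p = 0.0125) without AA 2 and AA 9. The high KA values were not spread over the group. KA 10, KA 11, KA 12 and KA 13, which carry the consecutive array numbers 52 to 55, stood at 1.61 to 2.29, and the other 22 of the 26 arrays ended at 0.93. Within array numbers 29 to 42 the means of KA and AA differed by -0.07 without AA 2 (2 KA, 7 AA), and within 43 to 56 by 0.52 without AA 9 (11 KA, 2 AA). Blocking on these number ranges gave a limma difference of 0.43 (p = 0.152) over all arrays and 0.24 (p = 0.437) without AA 2 and AA 9.

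TGFB1 and CTSD both followed the array number over the 26 arrays. The correlation was r = 0.68 for TGFB1 (permutation p = 3e-05, adjusted over 18 probe sets 0.00054; rho = 0.68, permutation p = 0.0002, adjusted 0.0018). For CTSD it was r = 0.68 (permutation p = 0.00011, adjusted 0.00099; rho = 0.68, permutation p = 0.00012, adjusted 0.0018). Leaving out the 2 arrays with the most extreme numbers gave 0.69 and 0.65. Only 0.287% and 0.283% of all probe sets had an r as far from 0. Within the 13 KA cows, r was 0.74 for TGFB1 (permutation p = 0.00382, adjusted over 4 tests 0.00764; rho = 0.73, permutation p = 0.00648, adjusted 0.00864) and 0.68 for CTSD (permutation p = 0.00746, adjusted 0.00995; rho = 0.80, permutation p = 0.00157, adjusted 0.00406). Within the 9 other AA cows, r was 0.57 for TGFB1 (exact permutation p = 0.0836, adjusted 0.0836; rho = 0.30, exact p = 0.437, adjusted 0.437) and 0.90 for CTSD (exact permutation p = 0.000639, adjusted 0.00256; rho = 0.90, exact p = 0.00203, adjusted 0.00406). CTSD therefore followed the number within each of these genotypes and TGFB1 within KA, and genotype and number cannot be fully told apart for TGFB1. By genotype, the means of CTSD were 0.09 ± 0.48 in AA, or 0.15 ± 0.34 without AA 2 and AA 9, 0.23 ± 0.27 in KA and 0.18 ± 0.20 in KK. Its genotype differences depended on how the array number was treated. The limma difference KK minus KA was -0.05 (p = 0.821), and 0.45 (p = 0.0139, adjusted p = 0.999) with array number as a linear term. KK minus AA was 0.09 (limma p = 0.66), and 0.34 (p = 0.0364, adjusted p = 0.919) with that term, while KA minus AA changed sign from 0.14 to -0.11 (limma p = 0.349 and 0.324). With no such term and without AA 2 and AA 9, KK minus AA was 0.04 and KA minus AA 0.08. The genes most like TGFB1 over the 26 arrays were RPS6KA4 (r = 0.90), SLC4A2 (0.86) and TMEM63B (0.86), and those most like CTSD were SMARCB1 (0.86), EML3 (0.84) and AKT1 (0.83).

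**Figure D4:**
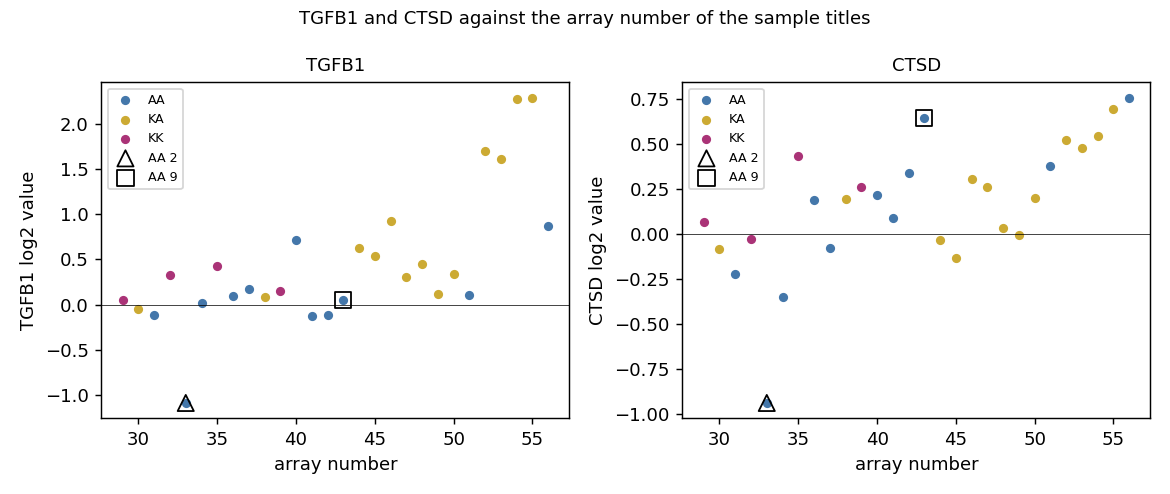
Log2 value of TGFB1 (left) and CTSD (right) against the running array number in the sample titles, 1 point per cow, coloured by genotype, with AA 2 and AA 9 outlined. The 4 KA arrays numbered 52 to 55 hold the highest TGFB1 values, and CTSD is higher at the higher numbers in KA and AA alike.

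MMP2 had its highest AA values in AA 2 and AA 9. Its mean was 0.49 ± 0.72 (n = 11) in AA, or 0.23 ± 0.46 (n = 9) without them, 0.04 ± 0.29 (n = 13) in KA and -0.06 ± 0.51 (n = 4) in KK. The limma difference KA minus AA was -0.45 (SE 0.21, p = 0.0373, adjusted p = 0.211), and it was -0.19 (p = 0.246) without AA 2 and AA 9. With a block for the number ranges it was -0.77 over all arrays (limma p = 0.00279, adjusted p = 0.163) and -0.43 without these cows (p = 0.0343). Also without them, the means differed by -0.42 within the lower numbers (2 KA, 7 AA) and by -0.44 within the upper (11 KA, 2 AA). On CTSB Bt.17926.1.A1_at the limma difference KA minus AA was -0.57 (SE 0.22, p = 0.016, adjusted p = 0.173), and -0.28 (p = 0.0781) without those cows. With the block it was -0.55 over all arrays (limma p = 0.0585) and -0.23 without them (p = 0.246), so here the block did not enlarge the difference as it did for MMP2. On CTSB Bt.3253.1.A1_at KK minus AA was -0.30 (SE 0.14, limma p = 0.0406, adjusted p = 0.909), without AA 2 and AA 9 it was -0.26 (p = 0.0611), and without KK 2 it was -0.17 (p = 0.266). The bright CTSB probe set had means of 0.30 ± 0.50 in AA, or 0.14 ± 0.39 without AA 2 and AA 9, 0.11 ± 0.34 in KA and 0.06 ± 0.31 in KK.

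CLU had a wide spread in each genotype. AA ran from -2.17 over 1.19 to 3.15, KA from -1.34 over -0.32 to 2.26 and KK from -1.10 over 0.14 to 1.89. The mean was 1.02 ± 1.33 (n = 11) in AA, or 0.64 ± 1.13 (n = 9) without AA 2 and AA 9, 0.12 ± 1.21 (n = 13) in KA and 0.26 ± 1.30 (n = 4) in KK. The limma difference KA minus AA was -0.90 (SE 0.49, p = 0.075, adjusted p = 0.265), and -0.52 without AA 2 and AA 9. In the fit over all arrays with no term for array number, no probe set of TIMP1, SOCS3, CTSD or CLU reached an unadjusted p under 0.05 in any comparison. Under the alternatives run, CLU did for KA minus AA with array weights (-0.87, limma p = 0.0321) and with array number as a linear term (-1.16, p = 0.0391), and for the slope without KK 3 (-0.73 per allele, p = 0.0378). TIMP1 Bt.632.1.S1_s_at did for KK minus AA without KK 4 (-0.70, limma p = 0.0452), CTSD did in the fits with the linear term given above, and SOCS3 in none.

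Along the number of K alleles, the 5 member probe sets at an unadjusted limma p under 0.05 were MMP9 (0.16 per allele), STAT3 Bt.15334.2.A1_at (0.37), TGFB3 (-0.26), MMP2 (-0.32) and CTSB Bt.3253.1.A1_at (-0.16), each with an adjusted p of 0.526. Without AA 2 and AA 9 STAT3 Bt.15334.2.A1_at (0.43, limma p = 0.00785) and CTSB Bt.3253.1.A1_at (-0.14, p = 0.0386) stayed under 0.05, and MMP9 (0.11, p = 0.0627), TGFB3 (-0.13, p = 0.2) and MMP2 (-0.15, p = 0.146) did not. Over all 18 member probe sets the median difference was -0.20 for KK minus AA and -0.06 for KA minus AA, beside 0.0087 and 0.0198 over all probe sets. Without AA 2 and AA 9 these medians were -0.07 and 0.04 for the members, so the second changed sign, beside 0.0049 and 0.0080 over all probe sets. In the pathway lists named above, 0 genes passed the adjusted threshold in any genotype comparison. For KA minus AA, the largest of the comparisons by unadjusted calls, 3 of 24 cathepsins and lysosomal proteins were higher and 5 lower at an unadjusted p under 0.05. The counts were 2 higher and 3 lower of 14 TGF-beta pathway genes, 1 higher and 2 lower of 16 metalloproteinases, 2 higher and 2 lower of 11 protease inhibitors, and 0 of 15 STAT3 pathway genes, all beside the 21.8% of all probe sets. Without AA 2 and AA 9 they were 1 higher and 2 lower of the cathepsins and lysosomal proteins, 0 and 1 of the TGF-beta pathway genes, 0 and 1 of the metalloproteinases, 1 and 1 of the inhibitors, and 1 and 0 of the STAT3 pathway genes, beside 9.5% of all probe sets.

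Among the 26 other cows, CLU was the most variable member by a wide margin. Its SD was 1.17, against a median of 0.20 over all probe sets, and only 43 of 24016 probe sets (0.179%) were at least as spread. The highest cow exceeded the lowest 21.5-fold. The values formed a run with no wide empty stretch apart from a gap of 0.83 between AA 1 and the next cow and one of 0.49 around 0. The next most variable were TGFB1 (SD 0.70) and STAT3 Bt.15334.2.A1_at (SD 0.62), and the least variable were CTSB Bt.3253.2.S1_at (0.16) and SOCS3 Bt.8137.1.S1_at (0.17). The genes most like CLU over the 26 arrays were CHI3L1 (r = 0.97), ZFP36L2 (0.94) and LGALS3 (0.93), and 155 of 9154 genes had an r over 0.8 with it.

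Several members varied together over the 26 other arrays. Of 45 pairs of representative probe sets, 13 passed a Benjamini-Hochberg adjusted permutation p of 0.05, and all 13 were positive. The closest pair was CTSB with CLU (r = 0.88, permutation p = 1e-05, the smallest the resamples can give, adjusted 0.000225; rho = 0.86, permutation p = 1e-05, adjusted 0.00045), and r was 0.84 without the 2 extreme arrays, 0.95 within the lower and 0.82 within the upper array numbers (n = 13 each). MMP2 was related to CTSB (r = 0.78, permutation p = 1e-05, adjusted 0.000225; rho = 0.68, permutation p = 0.00019, adjusted 0.00216) and to CLU (r = 0.69, permutation p = 9e-05, adjusted 0.00101; rho = 0.63, permutation p = 0.00082, adjusted 0.00615). Within the lower and upper numbers these were 0.80 and 0.73, and 0.80 and 0.59; without the 2 extreme arrays they were 0.65 and 0.55. TIMP1 was related to CTSB (r = 0.71, permutation p = 5e-05, adjusted 0.00075; rho = 0.72, permutation p = 8e-05, adjusted 0.0018; 0.70 without the 2 extreme arrays; 0.78 and 0.61 within the lower and upper numbers). CLU, CTSB, MMP2 and TIMP1 thus varied together on their representative probe sets, and all 4 share normalization and arrays. For CTSB this is Bt.393.1.S1_at, and its other probe sets were not set against CLU, MMP2 or TIMP1. AA 2 and AA 9 lay at or beyond the upper end of the other 26 for CLU, CTSB and MMP2. These 4 genes were not set apart from others. STAT3 and TGFB3 each passed with CTSB and TIMP1, and CTSD with CTSB, MMP2 and TGFB1. Of 9154 genes, 100 had an r over 0.8 with CTSB, 29 with MMP2 and 12 with TIMP1. EIF3D (r = 0.91) was closer to CTSB than CLU was, and SF3B2 (0.88) closer to MMP2 than CTSB was. SOCS3 and MMP9 entered no pair that passed.

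**Figure D5:**
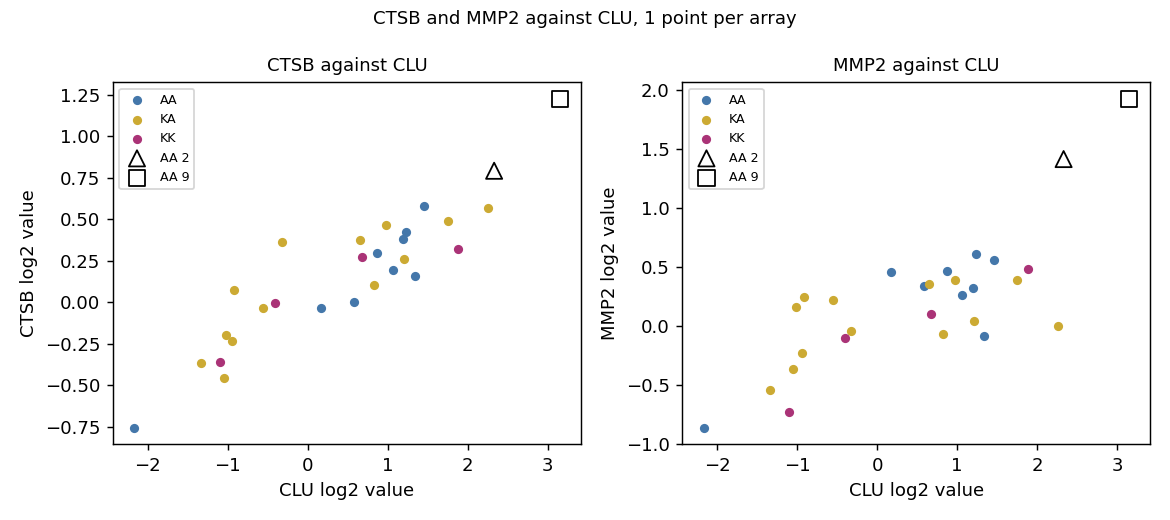
Log2 value of CTSB Bt.393.1.S1_at (left) and MMP2 (right) against CLU, 1 point per cow, coloured by genotype. The 26 filled points give r = 0.88 and 0.69; AA 2 (triangle) and AA 9 (square) were left out of these values and lie at the upper right.

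The members were also set against 3 summed measures over the 26 arrays, the means of the milk fat, fibroblast and macrophage lists, none of which holds a member. Of 54 correlations, 15 passed the adjusted threshold, 13 positive and 2 negative. TGFB3 followed the fibroblast list (r = 0.69, permutation p = 0.00014, adjusted 0.00378; rho = 0.71, permutation p = 0.0001, adjusted 0.0027; 0.73 without the 2 extreme arrays; 0.90 and 0.72 within the lower and upper numbers). The genes most like TGFB3 were SFRP2 (r = 0.83), FN1 (0.75) and COL3A1 (0.72), of which FN1 and COL3A1 encode matrix proteins. MMP2 followed the fibroblast list less closely (r = 0.54, permutation p = 0.00441, adjusted 0.0231; rho = 0.50, permutation p = 0.0101, adjusted 0.0454; 0.49 without the 2 extreme arrays), with 0.76 within the lower and 0.07 within the upper numbers, so this relation rests on the lower numbers.

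The macrophage list ran with CTSB Bt.17926.1.A1_at (r = 0.69, permutation p = 5e-05, adjusted 0.0027; rho = 0.69, permutation p = 0.0001, adjusted 0.0027; 0.60 without the 2 extreme arrays; 0.66 and 0.70 within the numbers). It also ran with STAT3 Bt.15334.1.S1_at (r = 0.67, permutation p = 0.00036, adjusted 0.00553; rho = 0.68, permutation p = 0.00024, adjusted 0.00324; 0.49 without the 2 extreme arrays; 0.83 and 0.56 within the numbers). TIMP1 Bt.632.1.S1_at gave r = 0.63 (permutation p = 0.00089, adjusted 0.00687; rho = 0.57, permutation p = 0.00254, adjusted 0.018; 0.48 without the 2 extreme arrays; 0.64 and 0.83 within the numbers). The genes most like TIMP1 were CNP (r = 0.88), CORO1A (0.85) and ADGRE5 (0.85), the last 2 known from leukocytes.

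CLU ran with the fibroblast list (r = 0.63, permutation p = 0.00053, adjusted 0.00572; rho = 0.63, permutation p = 0.00087, adjusted 0.0081; 0.62 without the 2 extreme arrays; 0.69 and 0.52 within the numbers) and with the macrophage list (r = 0.61, permutation p = 0.00075, adjusted 0.00675; rho = 0.69, permutation p = 0.00022, adjusted 0.00324; 0.71 without the 2 extreme arrays; 0.48 and 0.79 within the numbers). Against the milk fat list it ran the other way (r = -0.52, permutation p = 0.00616, adjusted 0.0251; rho = -0.50, permutation p = 0.0109, adjusted 0.0454), with -0.39 without the 2 extreme arrays and -0.43 and -0.67 within the lower and upper numbers. CTSB Bt.17926.1.A1_at was the only other member probe set with a negative relation to milk fat that passed (r = -0.56, permutation p = 0.00313, adjusted 0.0188; rho = -0.58, permutation p = 0.00266, adjusted 0.018), with -0.52 without the 2 extreme arrays and -0.34 and -0.63 within the numbers. Cows with more CLU RNA thus had less milk fat RNA also outside AA 2 and AA 9, over a far smaller range of milk fat values (-0.39 to 0.41).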

How the data were processed

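RNA of 28 mammary biopsies, 1 per cow, was hybridised to 28 arrays of 1 colour; the number of arrays limits the precision. The deposited table holds 1 log2 value for each probe set and array, from which a baseline per probe set had been subtracted that no source used here describes. Per the labels' protocols, the authors used Bioconductor 2.7 and R 2.13, and RMA and GCRMA are named per the submitters' processing notes, which of them applies here being not given in the sources used here. Absolute levels and signal over background are therefore unknown, and probe sets were set in coarse level classes (4128 bright, 13660 intermediate, 6228 dim) from the rounding steps of the values.

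The 112 control probe sets were left out of 24128, leaving 24016. The annotation gave 1 symbol for 13292 of these, several for 86 and none for 10638; 13263 matched RefSeq (assembly ARS-UCD2.0), giving 9155 genes. A gene's representative was chosen by brightest class, plainest probe set type and identifier, in that order. Genotypes were compared with limma (version 3.58.1, run in R 4.3.3) by lmFit and eBayes, with 1 mean per genotype or a slope per K allele, with Benjamini-Hochberg adjustment over all 24016. Correlations used 100000 resamples, exact under 10 arrays, two-sided. The scripts were tested on simulated data. The members and lists were chosen with earlier results of these data known.

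All members are named. Of other lists at most 4 genes are named, the 2 highest and 2 lowest by the mean of AA 2 and AA 9, and for each member the 3 genes with the highest r. For STAT3 these were PFN1 (r = 0.87), ACTB (0.82) and FTH1 (0.80), and for SOCS3 ABCF3 (0.65), SESN2 (0.65) and SPECC1L (0.60). MMP2 had SF3B2 (0.88), LAMB2 (0.86) and TNXB (0.86), and MMP9 had ADK (0.66), UPP2 (0.61) and PAG18 (0.60). CTSB had EIF3D (0.91), CDH1 (0.90) and PYGL (0.90). Alternatives were quantile normalization, subtracted array medians, robust variances, array weights, array number as a block of lower and upper numbers or as a linear term, only the groups compared, and leaving out AA 2 and AA 9 or each KK array. The correlations between members and with array number, the linear term, and the block without AA 2 and AA 9 were added after seeing the data.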

Additional observations from a re-analysis of the deposited data

Results flagged for a closer look

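STAT3 Bt.15334.1.S1_at stood at 0.64 in KK 4, apart from the other KK cows at 0.03 to 0.13, by Dixon's test of a single distant value. Of 18 groups examined 1 stood out in this way, about as many as chance gives.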

How the results depend on the processing

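All 18 member probe sets stayed short of the adjusted limma threshold in the main fit of each genotype comparison and under every alternative run. Over all probe sets, calls for KA minus AA, 0 as reported, numbered 47 after quantile normalization, 104 with array weights, 5 with array number as a linear term, 1 without AA 2 and AA 9 with lower and upper numbers as a block, and 0 to 5 when single KK arrays were left out; for KK minus KA array weights gave 3. Member probe sets at an unadjusted p under 0.05 for KK minus AA, 4 as reported, were 5 after quantile normalization. They were 2 with the block, 3 with the linear term, 2 without AA 2 and AA 9, and 1 without these cows and with the block. With only the 2 groups compared they were 3, and without single KK arrays 1 to 5. For KA minus AA, 4 as reported, they were 3 with the block, 3 with the linear term and 2 without AA 2 and AA 9. Leaving out these cows and adding the block gave 1. With only the 2 groups compared they were 5, and without single KK arrays 4 to 5. For KK minus KA, 0 as reported, they were 2 after quantile normalization, 4 with array weights, 1 with the linear term, 1 without AA 2 and AA 9, 1 with only the 2 groups compared and 0 to 1 without single KK arrays. For the slope, 5 as reported, they were 4 after quantile normalization, 3 with array weights and 6 with the linear term. Without AA 2 and AA 9 they were 2, or 3 with the block added, and without single KK arrays 2 to 6. Member probe sets above all 26 in AA 2 and AA 9, 7 as reported, were 0 after quantile normalization; those below, 1 as reported, were 0 after quantile normalization and 0 with array medians subtracted. Of 54 correlations with list means, 15 passed over the 26 arrays, 4 within the lower and 3 within the upper array numbers, with 13 arrays each. Among the 4, that of STAT3 Bt.15334.2.A1_at with the fibroblast list was not among the 15. The fibroblast relation of STAT3 Bt.15334.2.A1_at, r = -0.36 as reported, passed after quantile normalization (-0.52) and within the lower numbers (-0.83). The cause was not tested. No paired analysis was possible because the labels give no shared replicate numbers. Signal over background is unknown, so whether the dim SOCS3 probe sets were above background is not known.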
